A study of Mus musculus with 12 samples.

Results

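The miR-26 and miR-101 families are 2 groups of mouse microRNAs (miRNAs) known for repressing Ezh2, and 4 of their guide strands were followed here through endoplasmic reticulum stress: miR-26a, miR-26b, miR-101a and miR-101b (mmu-miR-26a, mmu-miR-26b, mmu-miR-101a and mmu-miR-101b). They were found by these names in the array annotation, and they are 4 of the 611 mouse miRNAs on the array and 4 of the 256 that were tested. The cells were C57BL/6 mouse embryonic fibroblasts (MEFs) of genotype XBP1KO (knockout, deficient in the stress mediator XBP1) or XBP1WT (wild type). Each genotype was left untreated or was given tunicamycin at 2 ug/mL for 12 h or 24 h, which makes 6 groups of 2 arrays, and the submitters describe the replicates as independent experiments. The labels name 1 kind of MEF per genotype and no number of embryos behind it, so a difference between the genotypes is a difference between these cultures. The arrays measured miRNAs alone, and neither XBP1 nor Ezh2 mRNA was analysed here.

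A miRNA guides the Argonaute complex to messenger RNAs that pair with its seed, bases 2 to 8 counted from its 5′ end, and lowers their translation and stability. Ezh2 is the methyltransferase of Polycomb repressive complex 2, which marks histone H3 at silenced genes, and both miR-101 and miR-26a have been described as binding its transcript in cancer cells and muscle cells. XBP1 is a transcription factor made when the sensor IRE1 splices its mRNA during the unfolded protein response, and tunicamycin starts that response by blocking N-linked glycosylation. The study asked which miRNAs answer to tunicamycin in a way that depends on XBP1.

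The mature sequences are printed because they show which family members share a seed and how little separates the members that the array has to tell apart. They come from RefSeq (mouse build GRCm38.p6), in which all 4 names were matched, and capitals mark bases 2 to 8.
miR-26a: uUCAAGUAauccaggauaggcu
miR-26b: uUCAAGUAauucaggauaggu
miR-101a: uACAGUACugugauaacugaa
miR-101b: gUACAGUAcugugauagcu

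The pair miR-26a and miR-26b shared its seed, UCAAGUA. Over the 21 bases compared they differed by 2 substitutions, C11U and C21U, written as the miR-26a base, its position from the 5′ end and the miR-26b base. In RefSeq miR-101b begins 1 base earlier than miR-101a, so its bases 2 to 8 read UACAGUA where those of miR-101a read ACAGUAC. The miR-101a seed starts at base 3 of miR-101b. Once aligned, miR-101a and miR-101b differed over 18 compared bases by the substitution A16G, counted on miR-101a.

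The array cannot separate the gene copies of miR-26a, because both hairpins carry the same mature arm. The hairpins are shown for that reason, from GRCm38.p6, with the mature arm in capitals. Mir26a-1 lies at chr9:119031796-119031885 on the plus strand within the protein-coding gene Ctdspl, and Mir26a-2 at chr10:126995530-126995613 on the plus strand within Ctdsp2.
Mir26a-1: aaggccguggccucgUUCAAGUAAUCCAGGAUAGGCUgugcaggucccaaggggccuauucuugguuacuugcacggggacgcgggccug
Mir26a-2: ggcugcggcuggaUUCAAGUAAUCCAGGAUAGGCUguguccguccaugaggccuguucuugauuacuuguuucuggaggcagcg

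Each of the other members had 1 hairpin. Mir26b lies at chr1:74394310-74394394 on the plus strand within Ctdsp1, so that every miR-26 gene sits in a gene of the small C-terminal domain phosphatase family. Mir101a lies at chr4:101346945-101347027 on the minus strand within the long noncoding RNA gene E130102H24Rik, and Mir101b at chr19:29135279-29135375 on the plus strand within Rcl1. RefSeq promoter windows of 300 bases around a start were given for the 4 protein-coding hosts, 5 windows in all, since Ctdsp2 had more than 1. The background was 27025 mouse promoter windows, 1 per gene, so hosts and background were not counted alike. On both strands, the motif TGACGTGG, which XBP1 and ATF6 bind, was in 0 of the 5, against 0.607% of the 27025. The E-box CACGTG, which Myc and related factors bind, was in 0 of the 5, against 7.24% of the 27025. The short CCACG, part of several stress response motifs, was in 3 of the 5, against 32.7% of the 27025.

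Values are scaled signals. The processed intensities of a miRNA's spots were averaged per probe, summed over its probes and scaled to a common 75th percentile, taken on each array over the 95 mouse miRNAs that had a detection call on every array. A floor of 13.1 (log2 3.71) was put under the scaled signals before log2 was taken, and tests were run on miRNAs that had a detection call from the scanner software on both replicates of 1 or more groups. Differences are in log2 units with standard errors (SE) from 1 limma model over the 6 groups, p-values are adjusted by the Benjamini-Hochberg method over the 256 tested miRNAs, and the threshold is an adjusted p of 0.05. Precision is limited by the 2 arrays in each group. Each member had 2 probes of 10 spots, and no spot was saturated.

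The 4 untreated arrays lay on 1 slide and the 8 tunicamycin arrays on the other, so treatment and slide cannot be told apart, whereas both genotypes shared each slide and each scan. Total unscaled signal ran from 15849.8 to 80997 on the tunicamycin arrays and from 95743 to 187401 on the untreated ones, and the lowest scaled signal that counted as detected ran from 9.74 to 29.5 on tunicamycin arrays and from 1.30 to 7.21 on untreated ones. Arrays of a group correlated at 0.961 to 0.993, except those of the knockout at 24 h (0.815) and the wild type at 24 h (0.890), and differences from untreated at 24 h are therefore also given without each of those arrays. Of the fibroblast markers 6 were detected on all 12 arrays, of 8 on the array, while 0 of 6 blood and 0 of 7 epithelial marker miRNAs were detected on any, and 1 of 2 endothelial markers was detected on some arrays. The summed scaled signal of the fibroblast markers was 33657 to 34799 in untreated, 15586 to 19309.9 in 12 h and 25609 to 26548 in 24 h knockout cells. It was 24985 to 26704 in untreated, 17025 to 18142 in 12 h and 18447 to 25892 in 24 h wild type cells, and its part in the results was not tested. Of the 4 muscle markers 1 was detected, miR-206. The summed muscle signal was 76.5 to 102 in 12 h knockout cells, against 8.81 to 13.9 in untreated ones, and 42.8 to 135 in 12 h wild type cells, against 2.83 to 10.0 in untreated ones, so that it was higher where the members were lower. At 24 h it was 5.02 to 8.86 in the knockout and 5.79 to 6.795 in the wild type. Of the 3 neural markers miR-9 and miR-128 were detected. Their list summed to 5.48 to 6.89 in 12 h and 9.998 to 15.4 in 24 h knockout cells, against 38.9 to 43.4 in untreated ones, and to 0 to 0.558 in 12 h and 6.83 to 7.62 in 24 h wild type cells, against 10.8 to 11.5 in untreated ones. The part of the muscle and neural markers in the results was not tested. In bulk RNA, fewer cells of a type and less RNA per cell cannot be told apart.

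**Figure D1:**
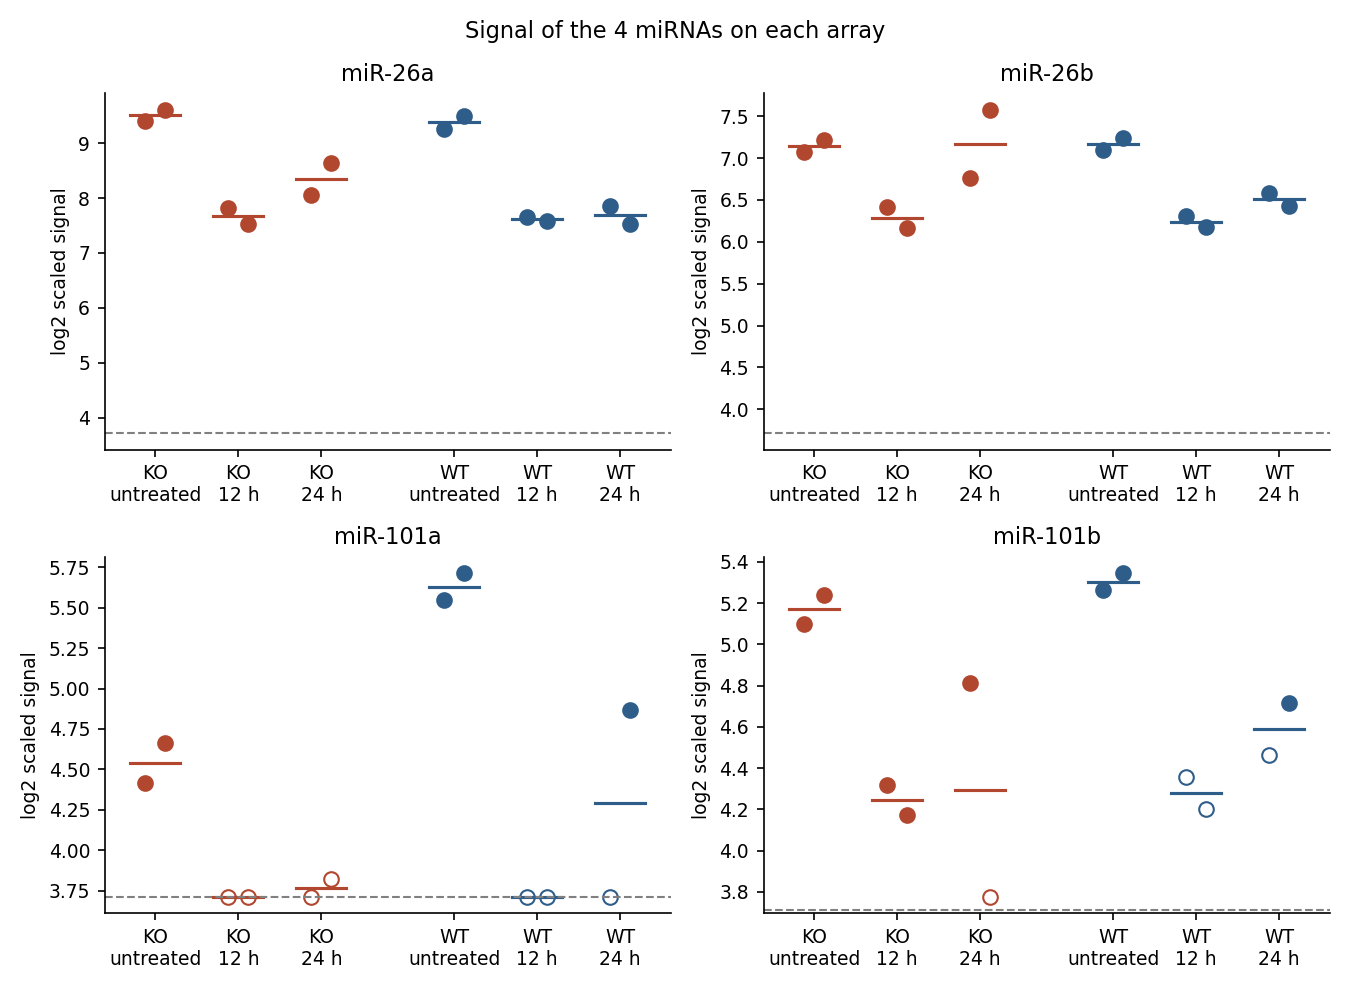
Log2 scaled signal (y axis) of miR-26a, miR-26b, miR-101a and miR-101b on each of the 12 arrays, by genotype and tunicamycin time (x axis). Points are arrays, filled where the miRNA was detected, short lines are group means, and the dashed line is the floor at 3.71. The untreated arrays of both genotypes lie above every 12 h array in all 4 panels, and miR-101a lies at the floor on all 4 arrays at 12 h.

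All 4 miRNAs had lower signals after 12 h of tunicamycin in both genotypes. In knockout cells 3 of the 4 fell past the threshold, and in wild type cells 4 of 4 did. Over all 256 tested miRNAs, 25.4% were called lower in the knockout and 25.4% in the wild type, and 49.2% and 50.8% were called in either direction, so being called was common at 12 h. The median difference of the 4 was -0.89 in the knockout and -1.39 in the wild type, against -0.44 and -0.42 for the 95 miRNAs detected on every array. MiR-101a and miR-101b are not among those 95. Over all 256 tested miRNAs the median was 0.0 in the knockout and -0.09 in the wild type.

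Mmu-miR-26a, the family member with 2 gene copies, fell in both genotypes. Its scaled signal was 227 and 184 on the 12 h knockout arrays, against 681 and 782 on the untreated knockout arrays. It was 202 and 193 on the 12 h wild type arrays, against 615 and 721 on the untreated wild type arrays. In neither genotype did treated and untreated arrays come near each other. It fell by 1.84 in the knockout (SE 0.22, limma adjusted p = 0.000857), which is 3.57-fold, and by 1.76 in the wild type (SE 0.22, limma adjusted p = 0.000966), which is 3.38-fold. Its 2 probes were lower by 4.08-fold and 3.36-fold in the knockout and by 4.02-fold and 3.15-fold in the wild type. Before scaling, miR-26a had 99.8 to 198 units at 12 h and 1619 to 1886 untreated in the knockout, and 72.0 to 128 at 12 h and 810.2 to 1112 untreated in the wild type.

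Mmu-miR-26b, which shares the seed of miR-26a, fell less. It had 85.5 and 71.6 on the 12 h knockout arrays, against 135 and 149 on the untreated knockout arrays. It had 79.4 and 72.3 on the 12 h wild type arrays, against 137 and 151 on the untreated wild type arrays. The groups did not overlap in either genotype. The fall was 0.86 in the knockout (SE 0.26, limma adjusted p = 0.0300) and 0.93 in the wild type (SE 0.26, limma adjusted p = 0.0226), or 1.81-fold and 1.90-fold. The knockout call was lost without either untreated or either 12 h knockout array (-0.99 to -0.73) and without either untreated wild type array, and the wild type call without either untreated or either 12 h wild type array (-0.995 to -0.86). The 95% intervals of the miR-26b differences, -1.48 to -0.24 and -1.54 to -0.31, lie near those of miR-26a, -2.36 to -1.31 and -2.28 to -1.23, and the difference between the members was not tested.

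Mmu-miR-101a was detected on the 4 untreated arrays and on none at 12 h. It had 2.04 and 5.61 on the 12 h knockout arrays, against 21.4 and 25.3 on the untreated ones, and 11.5 and 10.5 on the 12 h wild type arrays, against 46.8 and 52.5 on the untreated ones. All 4 values at 12 h were set to the floor, so only bounds can be given. A bound compares the untreated mean with the higher, on each treated array, of the miRNA's own signal and the lowest signal that counted as detected there. MiR-101a was at least 2.00-fold lower in the 12 h knockout cells and at least 2.54-fold lower in the 12 h wild type cells. The tests were of the floored values and not of these bounds. The tested difference was -0.83 in the knockout (limma adjusted p = 0.0678, not past the threshold) and -1.92 in the wild type (limma adjusted p = 0.00276). The knockout comparison passed without the first or the second 24 h wild type array. It does not compare those arrays, which enter it through the shared spread. The 12 h values, all set to the floor, add no variation to that spread.

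Mmu-miR-101b had 19.9 and 18.1 on the 12 h knockout arrays, both called detected, against 34.3 and 37.8 on the untreated knockout arrays. It had 20.5 and 18.4 on the 12 h wild type arrays, neither called detected, against 38.4 and 40.6 on the untreated wild type arrays. The 12 h signals of the genotypes overlapped although the detection calls differed. No used spot of either probe was well above background on any 12 h array, so bounds are given for both genotypes. MiR-101b was at least 1.90-fold lower in the 12 h knockout cells and at least 1.98-fold lower in the 12 h wild type cells. The tested difference was -0.92 in the knockout (limma adjusted p = 0.0384) and -1.02 in the wild type (limma adjusted p = 0.0268). The knockout call held only without either 24 h knockout array, of the 12 fits that left out 1 array, and the wild type call was lost without either untreated or either 12 h wild type array.

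The direction of this fall was not the same under every alternative for 3 of the 4. One alternative changed several choices together, namely normexp background correction of the median spot signals in place of the software's processed signals, and an offset of 50 that the scaling multiplied by 0.963 to 3.07 on tunicamycin arrays and by 0.455 to 0.781 on untreated arrays. Under it the 12 h differences of miR-26b, miR-101a and miR-101b were 0.16, 0.88 and 0.93 in the knockout. They were 0.41, 0.97 and 1.12 in the wild type. Both miR-101 miRNAs were thus called higher than untreated, the opposite direction, and miR-26b was not called. For miR-101a and miR-101b the limma adjusted p was 0.0221 and 0.0153 in the knockout and 0.00897 and 0.00240 in the wild type. The median difference of all tested miRNAs was 0.89 in the knockout and 1.23 in the wild type. Which of these choices turned the sign was not tested. MiR-26a was lower at 12 h, past the threshold, under each of the 14 alternatives in both genotypes, with differences from -3.64 to -1.25 in the knockout and from -3.30 to -0.94 in the wild type.

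**Figure D2:**
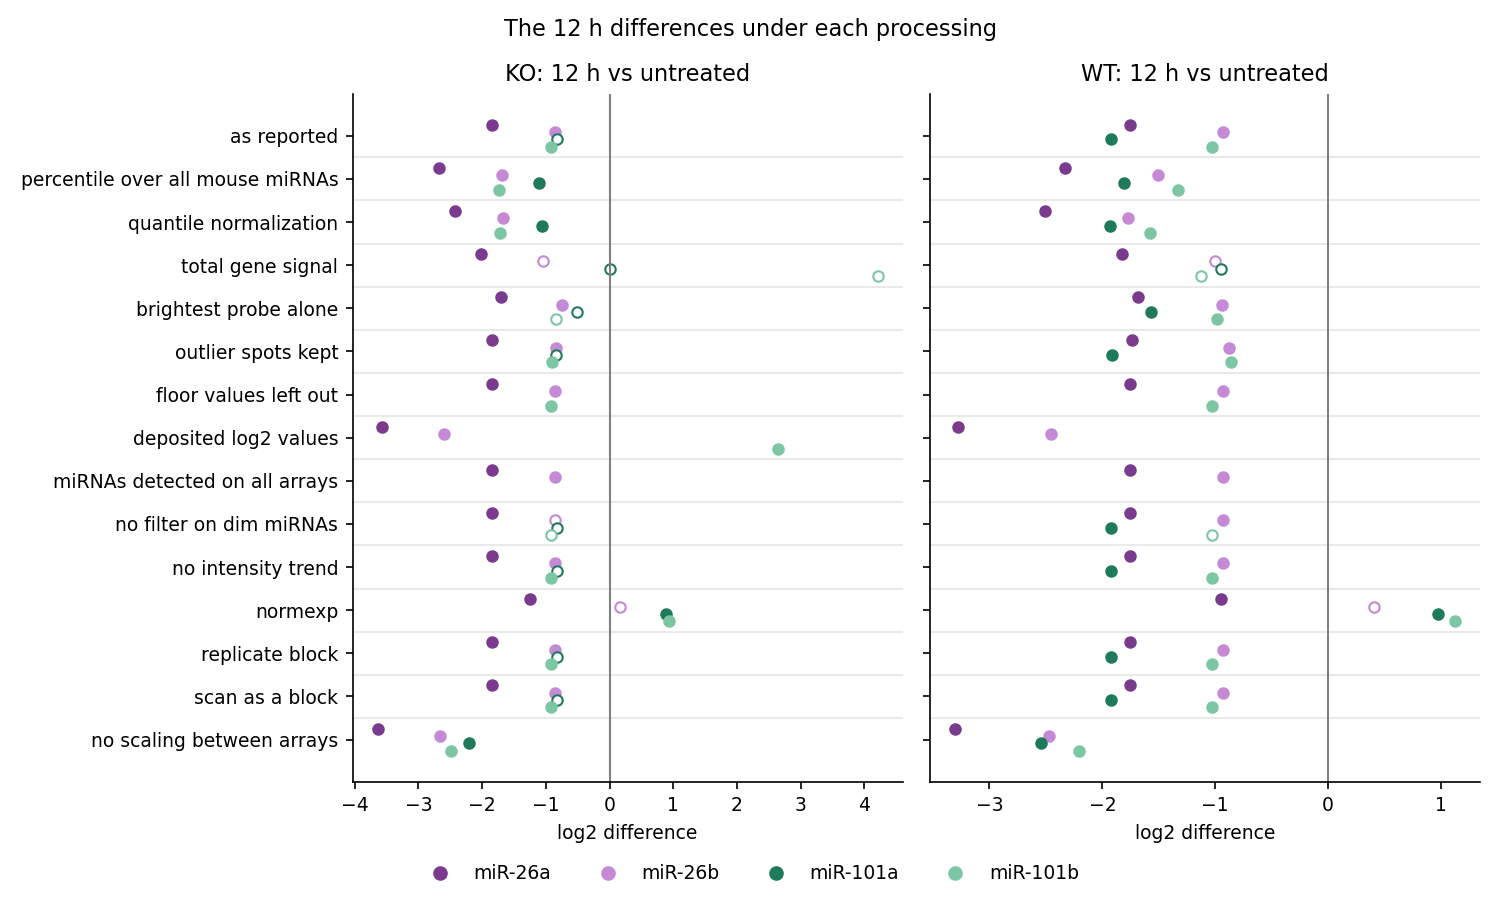
Log2 differences at 12 h (x axis) of the 4 miRNAs in knockout (left) and wild type cells (right), as reported and under each other processing (rows), filled where the adjusted p was under 0.05. MiR-26a (dark purple) lies left of 0 and is filled in every row of both panels, whereas miR-26b and both miR-101 miRNAs cross 0 with normexp, and miR-101b also with the total gene signal and the deposited values in the knockout.

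At 24 h fewer of the 4 were called. The 24 h comparisons use the same untreated arrays as those at 12 h. In the 24 h knockout cells 1 of the 4 was called lower, miR-26a, where 10.9% of all tested miRNAs were called lower and 14.1% in either direction. In the 24 h wild type cells 2 were, miR-26a and miR-101a, where 14.8% were called lower and 17.6% in either direction. The median of the 4 was -0.82 in the knockout and -1.03 in the wild type, against -0.05 and -0.08 for the 95 miRNAs detected on every array, which do not include miR-101a and miR-101b. Over all tested miRNAs the median was 0.0 in both genotypes.

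MiR-26a had 265 and 401 on the 24 h knockout arrays, against 681 and 782 untreated, and 232 and 185 on the 24 h wild type arrays, against 615 and 721 untreated. It fell by 1.16 in the knockout (SE 0.22, limma adjusted p = 0.0138) and by 1.69 in the wild type (SE 0.22, limma adjusted p = 0.00197), or 2.24-fold and 3.22-fold. The knockout value was -0.86 without the first 24 h knockout array and -1.46 without the second, and the wild type value was -1.85 and -1.53 without the first and the second 24 h wild type array. The knockout call was lost without the first (-1.26, limma adjusted p = 0.0614) or the second untreated knockout array (-1.06, limma adjusted p = 0.113). In the knockout the call was lost with the percentile taken over all mouse miRNAs (-0.94, limma adjusted p = 0.147) and with quantile normalization (-1.003, limma adjusted p = 0.0686).

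MiR-26b had 108 and 191 on the 24 h knockout arrays, against 135 and 149 untreated, so that the treated arrays lay on either side of the untreated ones. In the 24 h wild type it had 95.8 and 86.2, against 137 and 151 untreated, with no overlap. The difference was 0.02 in the knockout (95% interval -0.60 to 0.64, limma adjusted p = 1) and -0.66 in the wild type (95% interval -1.28 to -0.05, limma adjusted p = 0.147). The wild type difference passed without the first or the second 24 h knockout array (limma adjusted p = 0.0132 and 0.0131), and it was -0.74 without the first and -0.59 without the second 24 h wild type array, neither past the threshold. Without the second 24 h knockout array the knockout difference was -0.39, and without the first it was 0.43. Without any scaling between arrays it was -2.10 (limma adjusted p = 0.0139), where the median of all tested miRNAs was -1.83.

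MiR-101a had 10.2 and 14.1 on the 24 h knockout arrays, neither detected, against 21.4 and 25.3 untreated. It was at least 1.91-fold lower there, and the tested difference was -0.77 (limma adjusted p = 0.215). That difference was -0.72 without the first and -0.83 without the second of these arrays. The 24 h wild type arrays gave 9.82, not detected, and 29.2, detected, against 46.8 and 52.5 untreated, a difference of -1.34 (SE 0.32, limma adjusted p = 0.0264). No used spot was well above background on either array, so the fall is given as at least 1.69-fold. The difference was -0.76 without the first 24 h wild type array and -1.92 without the second. Leaving out values at the floor gave -0.76 (limma adjusted p = 0.102), and 6 of the 12 fits that left out 1 array kept the call. It was lost without either untreated array of either genotype and without either 12 h knockout array. The knockout comparison passed without the first or the second 24 h wild type array. The shared spread of those fits gets no variation from the 12 h values, which were all set to the floor.

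MiR-101b had 28.1, detected, and 13.7, not detected, on the 24 h knockout arrays, against 34.3 and 37.8 untreated. On the 24 h wild type arrays it had 22.1, not detected, and 26.3, detected, against 38.4 and 40.6 untreated. Every 24 h array lay below every untreated array of its genotype. The differences, -0.88 in the knockout (SE 0.30, limma adjusted p = 0.135) and -0.71 in the wild type (SE 0.30, limma adjusted p = 0.165), did not pass. The knockout value was -1.39 without the first 24 h knockout array (limma adjusted p = 0.00109) and -0.36 without the second. The wild type difference passed without either 24 h knockout array (limma adjusted p = 0.00628 and 0.00845), and it was -0.59 without the first and -0.84 without the second 24 h wild type array, neither past the threshold.

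Between 12 h and 24 h the miR-26 members rose in the knockout. MiR-26a was higher at 24 h by 0.68 (SE 0.22, limma adjusted p = 0.0486) and miR-26b by 0.88 (SE 0.26, limma adjusted p = 0.0349), 2 members where 17.6% of all tested miRNAs were called higher and 39.5% in either direction. The 95 miRNAs detected on every array had a median of 0.50 in this comparison. Without the second 24 h knockout array the 2 differences were 0.38 and 0.47 and neither passed. Both calls were also lost without either untreated or either 12 h array of either genotype, and that of miR-26a without either 24 h wild type array. With the replicate number as a block, 1 of them passed, and with the scan as a block, none (0) did. In the wild type miR-26a and miR-26b differed by 0.07 and 0.26 between the times, and none (0) of the 4 members passed limma's threshold or an unadjusted p under 0.05, where 21.9% of all tested miRNAs were called. MiR-101a and miR-101b differed by 0.05 each in the knockout and by 0.58 and 0.31 in the wild type. In the knockout miR-101b gave -0.47 without the first and 0.57 without the second 24 h knockout array, both past the threshold, and in the wild type miR-101a gave 1.16 without the first 24 h wild type array (limma adjusted p = 0.00323) and 0.0 without the second (limma adjusted p = 1). No used spot of miR-101a at either time, or of miR-101b at 12 h, was well above background, so no fold is given for these.

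**Figure D3:**
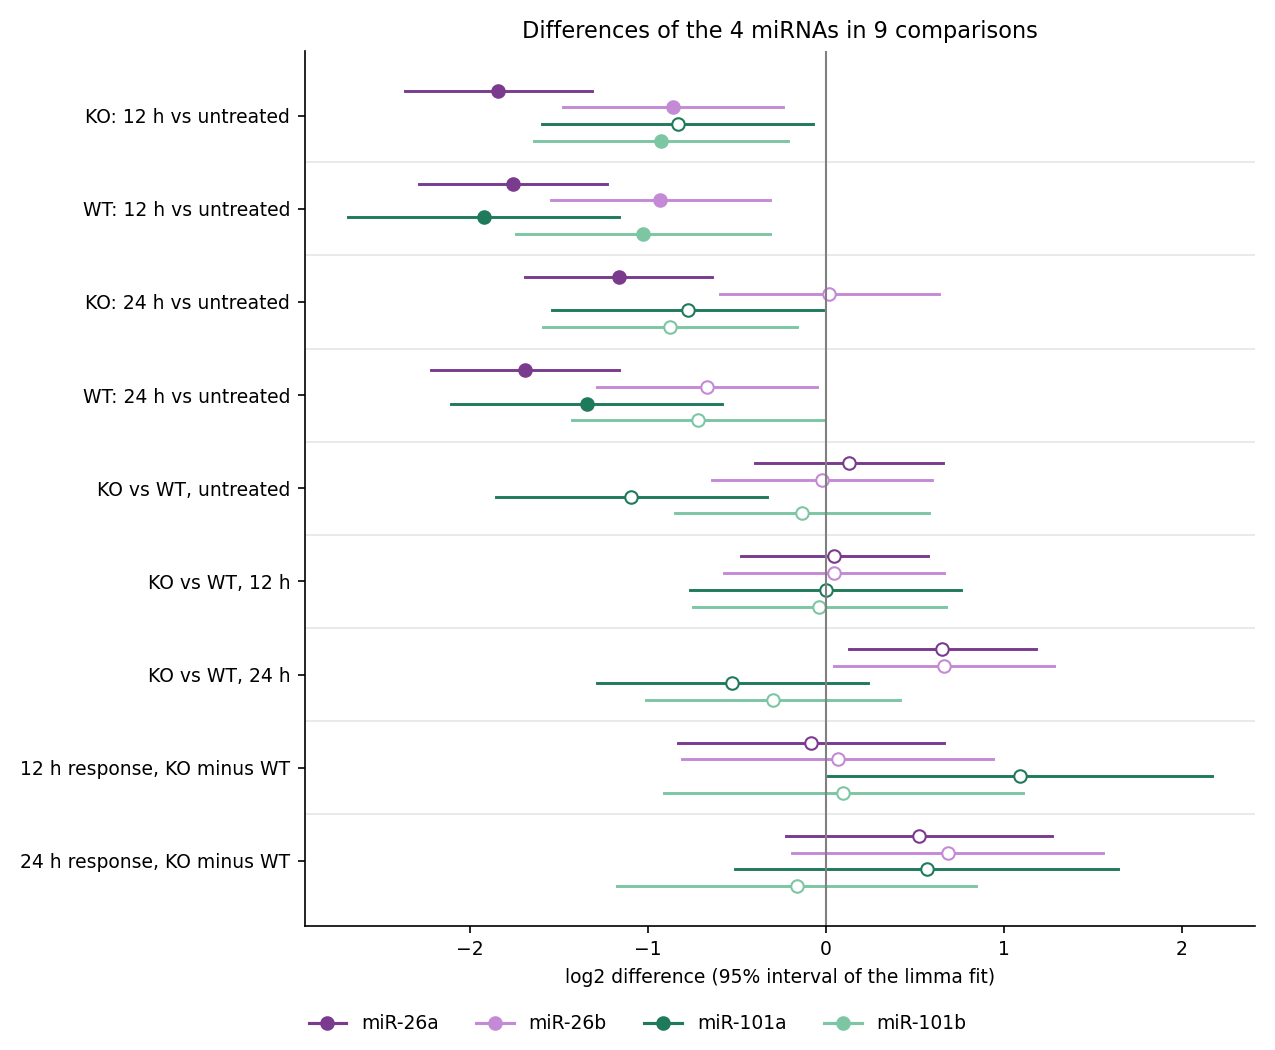
Log2 differences (x axis) of the 4 miRNAs in 9 comparisons (y axis), with the 95% interval of the limma fit as bars. Filled points passed an adjusted p of 0.05. At 12 h all 8 points lie below 0 and 7 are filled, whereas none of the points that compare the knockout with the wild type is filled.

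No member differed between the genotypes past the threshold when all 12 arrays were fitted. In untreated cells 0 of the 4 passed limma's test, where 12.5% of all tested miRNAs did, and 1, miR-101a, had an unadjusted p under 0.05. MiR-101a had 21.4 and 25.3 on the untreated knockout arrays, against 46.8 and 52.5 on the untreated wild type arrays, with no overlap. It was lower in the knockout by 2.13-fold, a difference of -1.09 (SE 0.32, limma adjusted p = 0.0807). It passed without the first or the second 24 h wild type array, with the same difference. The shared spread of these fits gets no variation from the 12 h values of miR-101a, which were all set to the floor. Same-numbered arrays of the genotypes shared a scan, and with the replicate number or the scan as a block it did not pass (limma adjusted p = 0.0690 and 0.111). The difference passed with the brightest probe alone (-1.05, limma adjusted p = 0.0495) and with floor values left out (-1.09, limma adjusted p = 0.0328), and its adjusted p ran from 0.0328 to 0.782 over 13 alternatives. Without scaling between the arrays it was -0.34. The neural marker list, of which miR-9 and miR-128 were tested, summed to 38.9 to 43.4 in the untreated knockout and 10.8 to 11.5 in the untreated wild type. The gap lay in miR-9, at 27.4 to 31.5 against -0.39 to -0.23. MiR-128 overlapped between the untreated cultures, at 11.5 to 11.9 against 10.8 to 11.5. The part of these markers in the result was not tested.

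The other members lay close together in the untreated cultures. MiR-26a differed by 0.13 (95% interval -0.40 to 0.66), miR-26b by -0.02 (-0.64 to 0.60) and miR-101b by -0.13 (-0.85 to 0.58), knockout minus wild type. Intervals of this width do not show that the genotypes were alike.

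At 12 h 0 of the 4 passed limma's test or an unadjusted p under 0.05, where 5.08% of all tested miRNAs passed the test. MiR-26a differed by 0.05 (95% interval -0.48 to 0.58), miR-26b by 0.05 (-0.57 to 0.66) and miR-101b by -0.03 (-0.75 to 0.68). MiR-101a was detected in neither genotype at 12 h, so no fold is given for it.

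At 24 h both miR-26 members were higher in the knockout without passing. MiR-26a had 265 and 401 on the knockout arrays, against 232 and 185 on the wild type arrays, and miR-26b had 108 and 191, against 95.8 and 86.2. Both pairs of arrays were apart. The differences were 0.66 for miR-26a (limma adjusted p = 0.149) and 0.66 for miR-26b (limma adjusted p = 0.201), and 0 of the 4 members passed, where 7.81% of all tested miRNAs did. Without the first 24 h knockout array the 2 differences were 0.95 and 1.07, both past the threshold, and without the second they were 0.36 and 0.26, neither past it. MiR-101a, with no used spot well above background in either genotype, and miR-101b differed by -0.52 and -0.29, and each turned sign without 1 array. MiR-101a gave 0.055 without the second 24 h wild type array, and miR-101b gave 0.22 without the second 24 h knockout array. Without the first of those arrays they gave -1.10 (limma adjusted p = 0.00295) and -0.81 (limma adjusted p = 0.00776).

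The response to tunicamycin was compared between the genotypes directly, as the log2 change in the knockout minus that in the wild type. At 12 h 0 of the 4 passed limma's test, where 5.86% of all tested miRNAs did, and 1 had an unadjusted p under 0.05. The differences were -0.08 for miR-26a (95% interval -0.83 to 0.66), 0.07 for miR-26b (-0.80 to 0.94) and 0.10 for miR-101b (-0.91 to 1.11). MiR-101a gave 1.09 (limma adjusted p = 0.345). It passed without the first or the second 24 h wild type array, in fits whose shared spread gets no variation from its 12 h values. Since all 4 of these 12 h values were set to the floor, 1.09 is the untreated difference between the genotypes with its sign turned. The size of the miR-101a response therefore cannot be compared. At 24 h the differences were 0.53, 0.69, 0.57 and -0.16 for miR-26a, miR-26b, miR-101a and miR-101b, and 0 of the 4 passed limma's test or an unadjusted p under 0.05, where 4.69% of all tested miRNAs passed the test. For miR-26b it was 1.095 without the first 24 h knockout array (limma adjusted p = 0.0154) and 0.28 without the second. For miR-26a it was 0.82 without the first and 0.23 without the second 24 h knockout array, neither past the threshold. For miR-101a it was -0.012 without the first 24 h wild type array and 1.15 without the second. In the fit without the second, the remaining 24 h wild type value was at the floor. The 24 h knockout arrays did not detect miR-101a, so 1.15 is mostly the untreated difference between the genotypes with its sign turned. For miR-101b it was -0.68 without the first and 0.36 without the second 24 h knockout array, and -0.29 and -0.035 without the first and the second 24 h wild type array, none of them past the threshold.

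Ordered by mean scaled signal, miR-26a was highest in untreated knockout (732) and untreated wild type cells (668), then in the knockout at 24 h (333), the wild type at 24 h (208), the knockout at 12 h (205) and the wild type at 12 h (197). The untreated groups overlapped each other, and so did neighbours among the last 3 groups. The knockout at 24 h overlapped neither the untreated wild type nor the wild type at 24 h. MiR-26b was highest in the knockout at 24 h (150), which overlapped the untreated wild type (144) and, through it, the untreated knockout (142), and lower in the wild type at 24 h (91.0), the knockout at 12 h (78.5) and the wild type at 12 h (75.8), of which the last 2 overlapped. MiR-101a ran from the untreated wild type (49.7) over the untreated knockout (23.4), which did not overlap it, to the groups in which most arrays did not detect it. MiR-101b was highest in the untreated wild type (39.5) and the untreated knockout (36.0), which did not overlap. The 4 treated groups followed, between 19.0 and 24.2, and neighbours among them overlapped. The highest of them, the wild type at 24 h, did not overlap the untreated knockout.

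The passenger arms on the array, miR-26b* and miR-101a*, were detected on none (0) of the 12 arrays, and the other 4 listed arms are not on it. Over the 12 arrays, which share slide and depth, the miRNAs most like miR-26a among 110 above the floor on every array were miR-30b (Pearson r 0.957), miR-30c (0.954) and miR-130a (0.950). Its seed partner miR-26b came at rank 15 with 0.855. The nearest to miR-26b were let-7i (0.968), miR-16 (0.941) and miR-199a-5p (0.932). MiR-101a was nearest to miR-500 (0.893), miR-320 (0.833) and miR-101b (0.798), and miR-101b to miR-99b (0.861), miR-331-3p (0.831) and miR-320 (0.827). These correlations are descriptions.

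Of 17 other miRNAs described as repressing Ezh2 (the let-7 family, miR-25, miR-30d, miR-214 and others), 12 were tested and 5 were detected on no array. At 12 h 4 of the 12 were called lower in each genotype and none (0) higher, where 25.4% of all tested miRNAs were called lower in each genotype, and 23.8% higher in the knockout and 25.4% in the wild type. They were miR-30d (-0.82), let-7c (-0.65), let-7i (-1.03) and miR-214 (-1.41) in the knockout, and miR-30d (-0.74), miR-25 (-0.68), let-7i (-0.88) and let-7g (-0.68) in the wild type. At 24 h none (0) of the 12 was called lower, and those called higher were miR-25 in the knockout (0.65) and let-7b (0.68) and let-7e (0.81) in the wild type, where 3.12% and 2.73% of all tested miRNAs were called higher. The median of the 12 was -0.55 and -0.39 at 12 h and 0.20 and 0.00 at 24 h, in knockout and wild type, against -0.44 and -0.42 at 12 h and -0.05 and -0.08 at 24 h for the 95 miRNAs detected on every array. From 12 h to 24 h, 8 of the 12 were called higher in the knockout and 1 in the wild type, where 17.6% and 3.12% of all tested miRNAs were. Between knockout and wild type none (0) of the 12 was called at any time.

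Myc is a transcription factor described as repressing miR-26a among many other miRNAs, and 21 of 22 others so described were tested, some of them also in the list just given. At 12 h 12 of the 21 were called lower in the knockout and 10 in the wild type, and none (0) higher, where 25.4% of all tested miRNAs were called lower in each genotype. The list medians were -0.65 and -0.50, against -0.44 and -0.42 for the 95 miRNAs detected on every array. Those with the smallest p-values were miR-195 (-2.66), miR-30a (-0.73), miR-30c (-1.03) and miR-22 (-0.75) in the knockout, and miR-29a (-0.50), miR-30d (-0.74), miR-30c (-0.75) and miR-146a (-2.19) in the wild type. At 24 h 2 were called lower in each genotype, miR-195 and miR-146a, and 3 were called higher in the wild type, where 10.9% and 14.8% of all tested miRNAs were called lower in knockout and wild type and 2.73% higher in the wild type. From 12 h to 24 h, 13 were called higher in the knockout and 2 in the wild type, where 17.6% and 3.12% of all tested miRNAs were, with medians of 0.53 and 0.38, against 0.50 and 0.36 for the 95 miRNAs. In the untreated cells miR-30a (1.04) and miR-195 (1.29) were higher in the knockout, where 5.08% of all tested miRNAs were called higher. At 12 h miR-22 was lower in the knockout (-0.71), where 5.08% of all tested miRNAs were called in either direction. At 24 h miR-30a was higher there (0.56), where 7.81% were. Response differences, knockout minus wild type, were called at 12 h for miR-195 (-2.01) and miR-30a (-0.63), where 5.86% were. At 24 h that of miR-195 was called (-1.72), where 4.69% were. MiR-195 was not above the floor on every array.

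The deposited log2 values gave miR-101b the opposite direction in the knockout. Those values equal the log2 of the scanner software's total signal per miRNA. For miR-101b on the 12 h knockout arrays that total was 238 and 509, whereas the software's own totals for its 2 probes added up to 5.91 and 12.9. On the first 24 h knockout array the total was 399 and the probe totals added up to 9.98, so that on these 3 arrays the total was 39.4 to 40.3 times the sum. On the untreated knockout arrays the total, 51.1 and 60.1, equalled the sum. With the deposited values miR-101b in the knockout was higher than untreated by 2.65 at 12 h (limma adjusted p = 0.0107). At 24 h, where 1 knockout array had a value, it was higher by 2.85. With the spot signals miR-101b differed by -0.92 at 12 h (limma adjusted p = 0.0384) and by -0.88 at 24 h, the latter not past the threshold. Its spots on both 12 h knockout arrays were not well above background.

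The total and the sum also differed for miR-101b on the second 24 h wild type array (3.96 times) and the first untreated wild type array (2.02 times), for miR-101a on the second 24 h wild type array (2.76 times) and for miR-26b on the first 24 h wild type array (3.11 times). For miR-26a they were equal on all 12 arrays. Over all miRNAs they differed by more than 5% in 779 of 2169 detected values. That was 98.3% of the values in which a probe had fewer than 50% of its spots significantly above background, and 26.3% of the others. The cause was not tested.

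**Figure D4:**
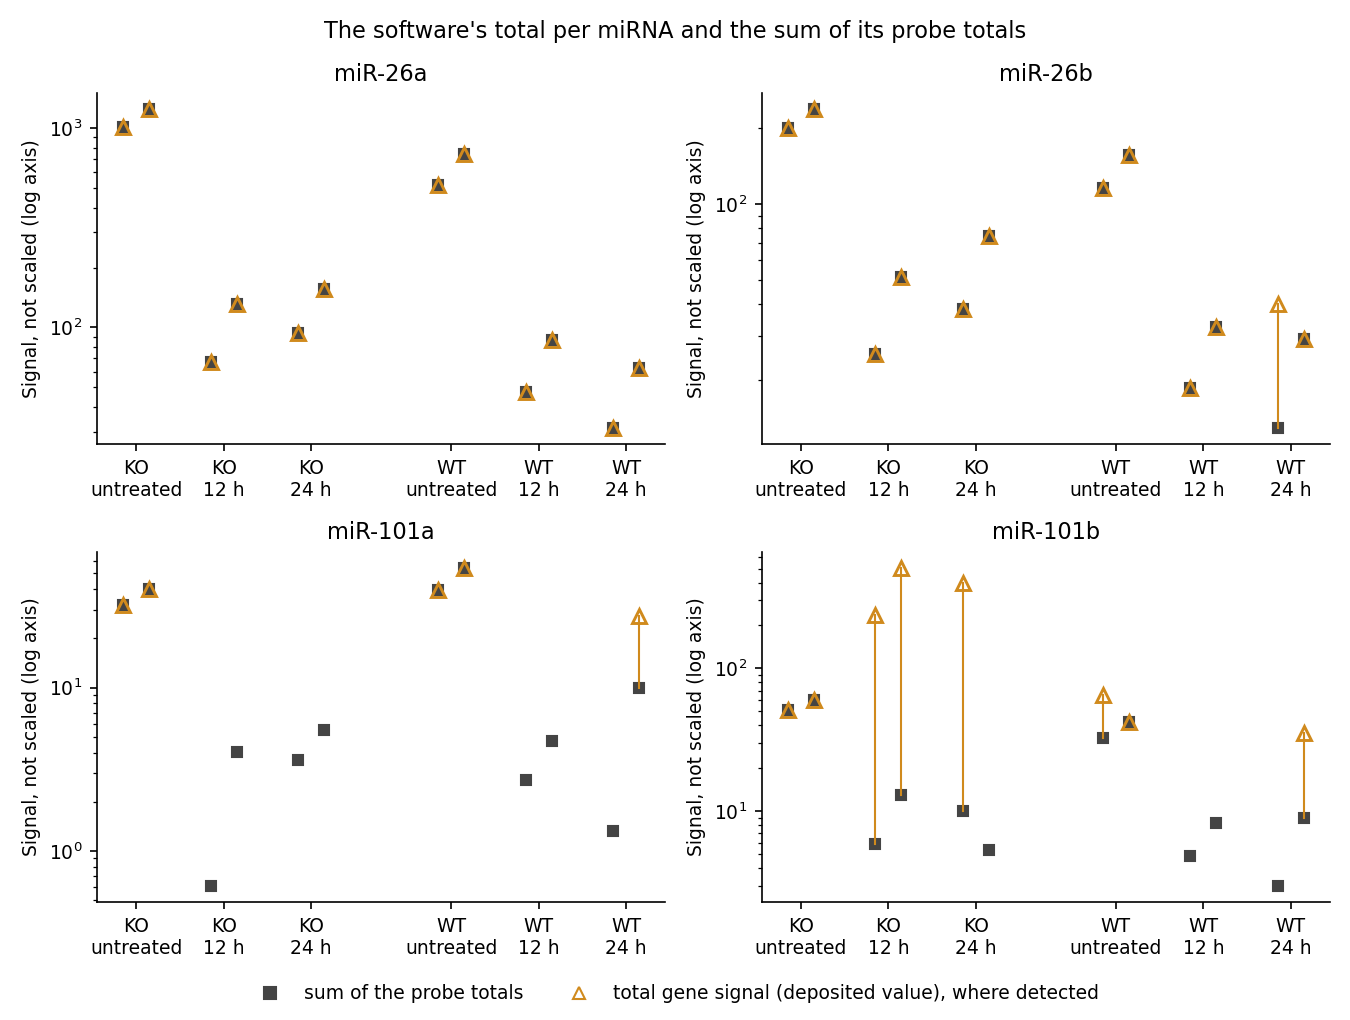
The scanner software's total signal per miRNA (triangles, drawn where detected, equal to the deposited value before log2) and the sum of its probe totals (squares), unscaled on a log axis, for each array by genotype and tunicamycin time. They coincide for miR-26a on every array, and for miR-101b the total lies 39.4 to 40.3 times above the sum on 3 tunicamycin arrays of the knockout.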

How the data were processed

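Total RNA was labelled with Cy3 and hybridised to 1-colour Agilent miRNA arrays, 12 in all. Per the file headers, the spot intensity values are scanner output (Agilent Feature Extraction, version 10.7.1.1), background-subtracted and not normalized between arrays. The authors' deposited log2 values matched the total signal per miRNA that this software wrote to within 1.15e-06, with array medians of 5.35 to 7.41, so they too were not scaled between arrays. Their further steps are not given in the sources used here.

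Control spots and outlier spots were left out of the 13000 spots that were not controls. Signals were summarised, scaled and floored as described above and tested with limma 3.58.1 in R 4.3.3 (moderated statistics with a mean-variance trend, two-sided) in 11 comparisons over all 12 arrays, with 6 residual degrees of freedom. The script was checked on simulated data. Named were the 4 members, up to 4 called miRNAs per list by p-value, and the 3 most correlated miRNAs per member. The members, lists and tests were chosen with earlier results of these data known. Figures used matplotlib 3.10.9. Same-numbered arrays of knockout and wild type shared a scan, and their deviations correlated at 0.87 (untreated), 0.42 (12 h) and 0.52 (24 h). Over all 15 pairs of groups the correlations ran from -0.55 to 0.87, with 6 over 0.1. With 2 arrays a group and independent experiments per the series' design text, which does not say that a number marks 1 experiment, the numbers were not taken to pair arrays, and fits with the replicate number or the scan as a block are given as alternatives. P-values measure the spread between these arrays.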

Additional observations from a re-analysis of the deposited data

How the results depend on the processing

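Alternatives were run on all 11 comparisons. MiR-26a was lower past the threshold under all 14 alternatives at 12 h in both genotypes and at 24 h in the wild type. The slide as a random block was not run, since slide and treatment coincide and such a fit cannot be made. The files hold median in place of mean spot signals, which normexp used. Processing without scaling was chosen after seeing the data. The alternative limited to miRNAs detected on all arrays held neither miR-101a nor miR-101b in any comparison. Alternatives with missing values left both without a value in some further comparisons. Signal over background limits both miR-101 miRNAs. A fit that leaves out 1 array assumes that the remaining array of the group varies like the other groups. For miR-101a both 12 h groups were set to the floor and add no variation to the spread of any fit.

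With normexp on median spot signals, whose offset of 50 was multiplied by 0.963 to 3.07 on tunicamycin arrays and by 0.455 to 0.781 on untreated arrays, the differences of miR-26b, miR-101a and miR-101b from untreated turned to 0.16, 0.88 and 0.93 at 12 h in the knockout and to 0.41, 0.97 and 1.12 in the wild type. At 24 h they were 1.14 (miR-101a) and 1.12 (miR-101b) in the knockout and 0.47, 0.98 and 1.13 in the wild type. Knockout minus wild type turned to -0.20 for miR-26a and -0.45 for miR-26b at 12 h and to -0.086 for miR-26b at 24 h. The differences of the 12 h responses turned to -0.25 (miR-26b), -0.090 (miR-101a) and -0.19 (miR-101b). Members past the threshold were 3 at 24 h in the knockout, of which miR-101a and miR-101b were higher than untreated and miR-26a lower. Both miR-101 miRNAs also passed as higher at 12 h in both genotypes and at 24 h in the wild type. Between 24 h and 12 h in the knockout 0 members passed.

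With the deposited log2 values, miR-101b in the knockout turned to 2.65 at 12 h and 2.85 at 24 h, and miR-26b in the knockout at 24 h to -2.03. MiR-26a between 24 h and 12 h in the wild type turned to -0.54. Knockout minus wild type was 0.70 (miR-26b) and 0.078 (miR-101b) untreated and 3.50 (miR-101b) at 24 h. The differences of responses were -0.15 at 12 h and -0.053 at 24 h for miR-26b, and 3.42 at 24 h for miR-101b.

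With the software's total gene signal, scaled and floored, miR-101b in the knockout turned to 4.21 at 12 h, 2.19 at 24 h and -2.02 between 24 h and 12 h, and miR-26b in the knockout at 24 h to -0.17. MiR-26a between 24 h and 12 h in the wild type turned to -0.13. Knockout minus wild type at 12 h was -0.12 (miR-26a), -0.12 (miR-26b) and 4.64 (miR-101b), and at 24 h -0.13 (miR-26b) and 1.69 (miR-101b). The differences of responses were -0.043 at 12 h and -0.049 at 24 h for miR-26b, and 2.39 at 24 h for miR-101b. There was 1 member past the threshold at 12 h in the knockout, 1 at 12 h in the wild type, 1 at 24 h in the wild type and 1 between 24 h and 12 h in the knockout.

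Without scaling between arrays, 4 members passed at 24 h in the knockout, 4 at 24 h in the wild type and 0 between 24 h and 12 h in the knockout, where the medians of all tested miRNAs against untreated lay between -1.83 and -1.36. MiR-26b in the knockout at 24 h turned to -2.10. Between 24 h and 12 h, miR-101b in the knockout turned to -0.18, and miR-26a and miR-26b in the wild type to -0.53 and -0.33. Knockout minus wild type was 0.73 (miR-26b) and 0.62 (miR-101b) untreated, and for miR-101b 0.33 at 12 h and 0.081 at 24 h. The differences of the 12 h responses were -0.18 (miR-26b) and -0.28 (miR-101b).

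With the percentile over all mouse miRNAs, knockout minus wild type was 0.37 (miR-26b) and 0.26 (miR-101b) untreated and 0.18 (miR-101b) at 24 h, and the differences of the 12 h responses were -0.19 (miR-26b) and -0.40 (miR-101b). Members past were 0 at 24 h in the knockout, 1 at 24 h in the wild type and 1 between 24 h and 12 h in the wild type. With quantile normalization, knockout minus wild type was 0.010 (miR-26b) and 0.15 (miR-101b) untreated and 0.10 (miR-101b) at 24 h, and the differences of the 12 h responses were 0.092 (miR-26a) and -0.15 (miR-101b). Members past were 0 at 24 h in the knockout and 2 between 24 h and 12 h in the wild type.

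With the brightest probe alone, knockout minus wild type turned to 0.032 for untreated miR-26b and 0.030 for miR-101b at 12 h, with 1 member past in untreated cells and 1 between 24 h and 12 h in the knockout. With outlier spots kept, the difference of the 12 h responses of miR-101b was -0.044, and 1 member passed between 24 h and 12 h in the knockout. With floor values left out, 1 member passed at 24 h in the wild type and 1 in untreated knockout against wild type. With no filter on dim miRNAs, 1 passed at 12 h in the knockout, 1 at 24 h in the wild type and 0 between 24 h and 12 h in the knockout. With a replicate block 1 passed between 24 h and 12 h in the knockout and with the scan as a block 0 did, and neither block moved another count of members past, the comparisons of knockout with wild type included, whose same-numbered arrays shared a scan. Beyond the construction of each alternative, the cause was not tested.

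Leaving out each array in turn gave 1 to 3 members past at 12 h and 0 to 2 at 24 h in the knockout, 2 to 4 at 12 h and 1 to 4 at 24 h in the wild type, and 0 to 3 in the knockout and 0 to 1 in the wild type between 24 h and 12 h. Knockout against wild type gave 0 to 1 untreated, 0 to 0 at 12 h and 0 to 3 at 24 h, and the differences of responses 0 to 1 at both times. MiR-26a kept its 12 h calls in all 12 such fits in both genotypes, and its 24 h knockout call was lost without either untreated knockout array (-1.26 and -1.06). MiR-101b at 12 h in the knockout kept its call in 2 of 12, with values of -0.996 to -0.85. MiR-26b at 12 h kept its call in 6 of 12 in the knockout and 8 of 12 in the wild type. Values whose sign turned without 1 array ran as follows. At 24 h against untreated in the knockout, miR-26b ran from -0.39 to 0.43. Between 24 h and 12 h, miR-101b in the knockout ran from -0.47 to 0.57 and miR-26a in the wild type from -0.095 to 0.23. Knockout minus wild type ran from -0.096 to 0.052 for untreated miR-26b, and at 12 h from -0.10 to 0.20 for miR-26a, from -0.082 to 0.17 for miR-26b and from -0.11 to 0.042 for miR-101b. At 24 h it ran from -1.10 to 0.055 for miR-101a and from -0.81 to 0.22 for miR-101b. The differences of the 12 h responses ran from -0.23 to 0.069 (miR-26a) and from -0.059 to 0.20 (miR-26b), and those of the 24 h responses from -0.012 to 1.15 (miR-101a) and from -0.68 to 0.36 (miR-101b).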
